A study of Mus musculus with 12 samples.

Results

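The complement system was followed here through 8 genes in sorted mouse mammary cells: the components C3, C4b, C1s, C1ra and Cfb, and the regulators Serping1, Cd55 and Cd59a. They were taken by name from the 20114 entries of the deposited count table that name a single locus, and all 8 were found and tested among 14039 loci with enough counts. C4b shares its entry with C4a, so its values are those of both genes and are given as C4. RNA sequencing was done on 12 libraries, 4 per group, of primary mammary epithelial cells sorted by fluorescence from adult female mice aged 9 weeks whose background mixes 129X1/SvJ with C57BL/6 and Swiss Webster. Recombined cells (mT-mG/SmoM2;MMTV-Cre, SmoM2 positive) were green: Cre, driven by the mammary tumor virus promoter, had turned on SmoM2, an active form of the Hedgehog transducer Smoothened, and had switched the mT-mG reporter from tdTomato to EGFP. Unrecombined cells shared that genotype but were red and SmoM2 negative. Wild type cells (mT-mG/SmoM2;+) carried the reporter and SmoM2 alleles but no Cre, and were red. All groups therefore carry the SmoM2 allele, no group holds green cells without SmoM2, and SmoM2, Cre activity, color and the kinds of cell sorted cannot be told apart in the comparisons with recombined cells. No label ties a library to its animals, so p values measure the spread between these libraries.

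Complement is a cascade of plasma and tissue proteins that marks and lyses targets. In the classical pathway C1q carries the proteases C1r and C1s, which cleave C4 and C2; in the alternative pathway factor B (Cfb) joins C3b; and both lead to cleavage of C3, the central component, and then of C5. Serping1 encodes the C1 inhibitor, a serpin that blocks C1r and C1s, while Cd55 and Cd59a encode membrane proteins that shield cells, Cd55 by speeding the decay of the C3 convertases and Cd59a by blocking the membrane attack complex. Although the liver makes most plasma complement, epithelial cells, fibroblasts and macrophages make components locally.

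The sequences upstream of C1ra, C1s and C3 are shown because C1ra and C1s, neighbours in the cascade, fell in recombined cells while C3, its hub, varied within groups. Each is the 250 bases before the annotated start in RefSeq on build GRCm38.p6, on the strand of the gene. The counts use build mm9, and the 2 sets of positions are not interchangeable. RefSeq gives C1s under the symbol C1s1 with 2 starts, and the window of the upstream start is shown. Capitals mark matches to 5 motifs, chosen after the values were seen and searched on both strands. For the interferon-gamma activated site the letters were TTCNNNGAA, which 7.02% of the 32851 promoter windows of this length hold. For C/EBP they were TTGCNNAA, held by 9.56%. For AP-1 they were TGANTCA, held by 6.75%. For Gli, the factor at the end of the Hedgehog pathway, they were TGGGTGGTC, held by 0.225%. For the TATA box they were TATAAA, held by 12.4%.
C1ra, chr6:124512371-124512620, plus strand: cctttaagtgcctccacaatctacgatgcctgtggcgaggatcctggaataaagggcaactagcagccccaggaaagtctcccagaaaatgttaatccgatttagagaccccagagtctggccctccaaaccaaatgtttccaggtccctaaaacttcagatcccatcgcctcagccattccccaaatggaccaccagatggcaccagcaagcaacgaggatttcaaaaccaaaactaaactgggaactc
C1s, chr6:124542360-124542609, minus strand: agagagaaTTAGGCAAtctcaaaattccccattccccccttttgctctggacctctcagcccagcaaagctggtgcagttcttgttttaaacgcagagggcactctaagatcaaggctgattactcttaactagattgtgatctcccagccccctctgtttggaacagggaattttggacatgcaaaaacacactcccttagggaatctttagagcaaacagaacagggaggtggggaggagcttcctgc
C3, chr17:57228137-57228386, minus strand: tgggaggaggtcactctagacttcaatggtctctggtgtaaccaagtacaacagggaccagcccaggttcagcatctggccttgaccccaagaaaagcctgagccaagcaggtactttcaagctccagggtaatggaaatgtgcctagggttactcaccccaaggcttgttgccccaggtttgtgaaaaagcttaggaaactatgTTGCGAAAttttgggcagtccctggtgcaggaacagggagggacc
C3 held a C/EBP match at position -45 from the start and C1s one, on the opposite strand, at position -242, while the window of the other C1s start, chr6:124542322-124542571, held none. C1ra held none of the 5 motifs, and neither did Cd55 or Cd59a, the other members in the promoter table. A match is a description of letters and not a binding site, and no match says only that the letters are not in this window.

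Total counts per library lay between 19581993 and 34779433. Levels are given as CPM, read counts relative to library size after scaling by the trimmed mean of M values (TMM). Recombined libraries 3 and 4 stood apart on a principal component with 31.4% of the variance. They had reads at 14256 and 14601 loci, against 15289 to 16814 in the other libraries. The luminal markers Krt8, Krt18 and Epcam were present in every library, and the sum of 9 luminal markers lay between 2274 and 4645 CPM in recombined, between 5682 and 7839 in unrecombined and between 5342 and 9468 in wild type libraries. Fibroblast transcripts were also present in all groups. The sum of 8 fibroblast markers (Col1a1, Col1a2, Col3a1, Pdgfra, Dcn, Lum, Mfap5 and Pdgfrb) lay between 205 and 564 CPM in recombined, between 4963 and 7076 in unrecombined and between 1352 and 3184 in wild type libraries. The sum of 6 basal markers (Trp63, Krt14, Krt5, Krt17, Acta2 and Myh11) lay between 1242 and 5099 CPM in recombined, between 233 and 660 in unrecombined and between 437 and 624 in wild type libraries. A sum of 9 macrophage and dendritic markers lay between 16.0 and 26.8 CPM in recombined, between 17.4 and 37.6 in unrecombined and between 38.2 and 116 in wild type libraries. None of these markers was at 0 in all libraries. The sum of 4 endothelial markers lay between 25.6 and 74.8 CPM in recombined, between 68.7 and 128 in unrecombined and between 57.2 and 103 in wild type libraries. In such bulk libraries fewer cells of a type and less RNA per cell cannot be told apart.

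The proteases of C1 and their inhibitor were low in recombined cells, and they were the members that passed the test. C1s (mm9 chromosome 6, from 124480361), the protease that cleaves C4 and C2, had 33.7, 35.3, 38.0 and 35.7 CPM in recombined libraries 1 to 4, 162, 145, 155 and 99.6 CPM in unrecombined libraries, and 56.7, 66.6, 99.5 and 116 CPM in wild type libraries. All recombined libraries lay below every other library and close together, with a coefficient of variation of 4.95%, against 32.8% in wild type libraries. C1ra (chromosome 6, from 124462638), which activates C1s, had 2.83, 1.54, 0.807 and 1.07 CPM in recombined, 21.8, 18.9, 13.8 and 14.5 CPM in unrecombined, and 7.55, 6.42, 13.2 and 12.2 CPM in wild type libraries. Here all 3 groups were apart, with recombined lowest and unrecombined highest, and the recombined values rest on 95, 42, 15 and 26 reads. Serping1 (chromosome 2, from 84605516) had 11.4, 7.40, 9.84 and 8.52 CPM in recombined, 127, 115, 100 and 84.6 CPM in unrecombined, and 40.9, 49.3, 101 and 91.5 CPM in wild type libraries. Recombined libraries lay below all others, and the unrecombined and wild type ranges overlapped.

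**Figure D1:**
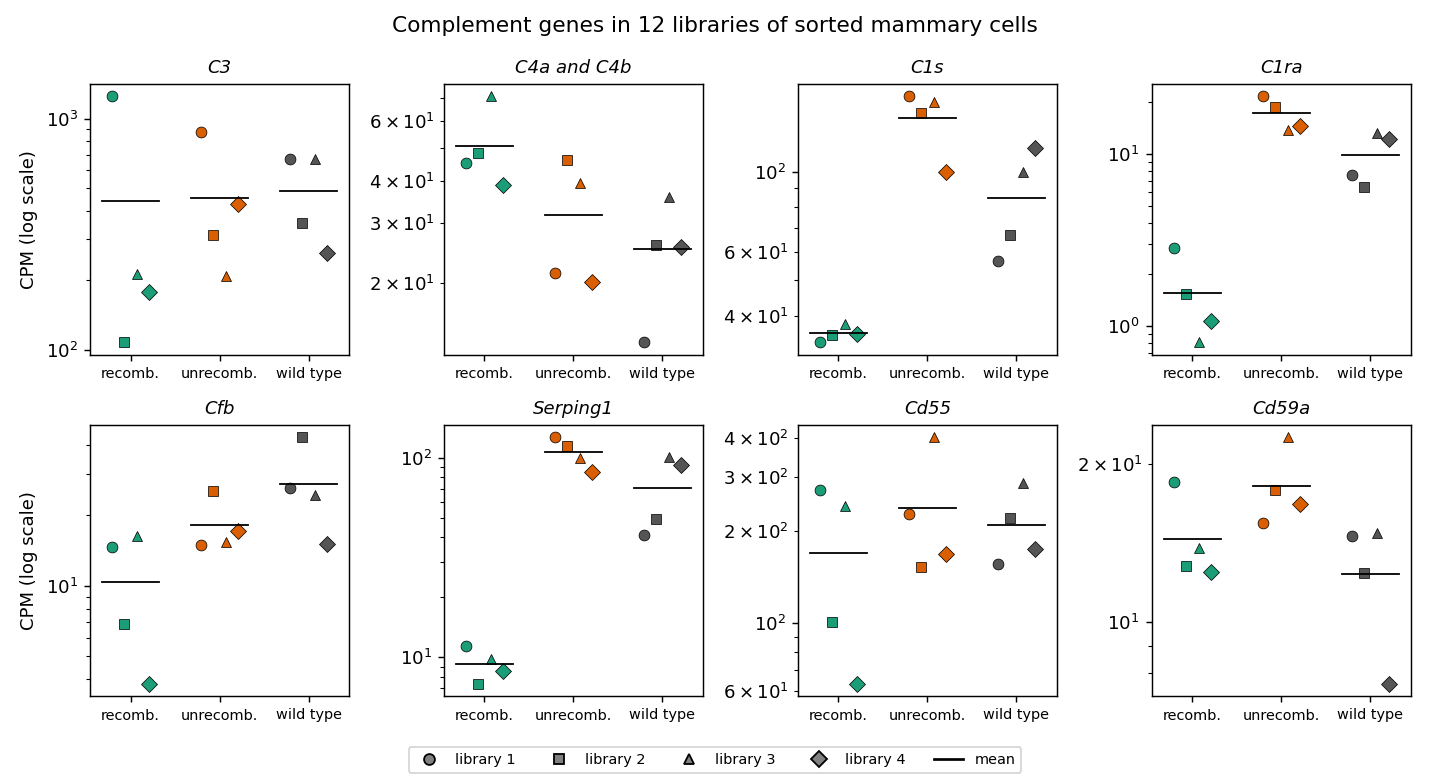
Levels of the 8 complement genes in each library, as CPM on a log axis, with recombined, unrecombined and wild type libraries from left to right; each point is 1 library, its shape gives the library number and the line is the mean of 4. The recombined points of C1s (33.7 to 38.0 CPM), C1ra and Serping1 lie below all others, while C3 in recombined library 1 (1256 CPM) lies far above the other 3 recombined libraries.

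Against wild type, recombined cells had less C1s, with a log2 difference of -1.25 ± 0.223 (SE, n = 4 each; adjusted p = 0.00465, quasi-likelihood test of edgeR with Benjamini-Hochberg adjustment over all loci, threshold 0.05). C1ra differed by -2.64 ± 0.408 (adjusted p = 0.00179) and Serping1 by -2.92 ± 0.290 (adjusted p = 0.000102), a level 7.58-fold lower. These 3 of 8 members passed, all lower. Over all 14039 loci 6.55% passed in this comparison, with 2.38% lower and 4.17% higher, and 20.6% had an unadjusted p under 0.05. The median log2 fold change was -0.78 over the 8 members and -0.019 over all loci. Groups did not overlap for these 3 genes, which were lower, and for C4, which was higher, against 12.2% of all loci (5.91% lower and 6.33% higher). The call of C1s was lost without recombined 3 and 4 together (log2 -1.30, adjusted p = 0.0514). Among libraries whose label number begins with 23, which are 2 recombined and 3 wild type, the log2 values were -1.10 for C1s (adjusted p = 0.141), -2.05 for C1ra (0.116) and -2.76 for Serping1 (0.0363), and among those beginning with 24, with a lone wild type library and no test, they were -1.65, -3.67 and -3.31.

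Against unrecombined cells of the same genotype the same 3 members passed, C1s, C1ra and Serping1. C1s in recombined libraries differed by -1.98 ± 0.228 on the log2 scale (adjusted p = 0.000152), a level 3.93-fold lower. C1ra differed by -3.44 ± 0.420 (adjusted p = 0.000249), or 10.9-fold, and Serping1 by -3.52 ± 0.297 (adjusted p = 9.61e-06), or 11.5-fold. Again 3 of 8 members passed, all lower. The share over all loci was 5.22%, with 2.14% lower and 3.08% higher, and 18% had an unadjusted p under 0.05. The median log2 fold change was -0.65 over the members and -0.0088 over all loci. Groups did not overlap for these 3 members alone, against 11.3% of loci (5.71% lower and 5.57% higher). In libraries numbered from 23 the values were -2.14 (adjusted p = 0.0134), -3.20 (0.0245) and -3.67 (0.0111) for C1s, C1ra and Serping1. In libraries numbered from 24 they were -1.80 (0.0814), -3.91 (0.0629) and -3.33 (0.0185), so that only Serping1 passed there.

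Unrecombined cells had higher values of the same genes than wild type cells, without a call. C1s differed by 0.73 ± 0.221 on the log2 scale (unadjusted p = 0.00531, adjusted p = 0.703 in edgeR), Serping1 by 0.59 ± 0.269 (unadjusted p = 0.0441) and C1ra by 0.81 ± 0.380 (unadjusted p = 0.0517). Over all alternative settings these values ranged from 0.15 to 1.04, from 0.026 to 0.92 and from 0.23 to 1.16. Among libraries numbered from 24, unrecombined 3 and 4 had 155 and 99.6 CPM of C1s, against 116 in wild type 4. Serping1 had 100 and 84.6 against 91.5 CPM there, and C1ra 13.8 and 14.5 against 12.2 CPM. In edgeR 0 of 8 members and 0 of 14039 loci passed, a share of 0%. At an unadjusted p under 0.05 the share of all loci was 3.85%. DESeq2 and limma-voom also called 0 members, and 78 and 18 loci. C1ra and Cd59a were higher in every unrecombined than in any wild type library, against 4.42% of loci that did not overlap (2.86% higher and 1.55% lower). The median log2 difference was 0.44 over the members and -0.0021 over all loci. The 3 comparisons share libraries in pairs, so their values stand side by side and are not separate evidence.

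**Figure D2:**
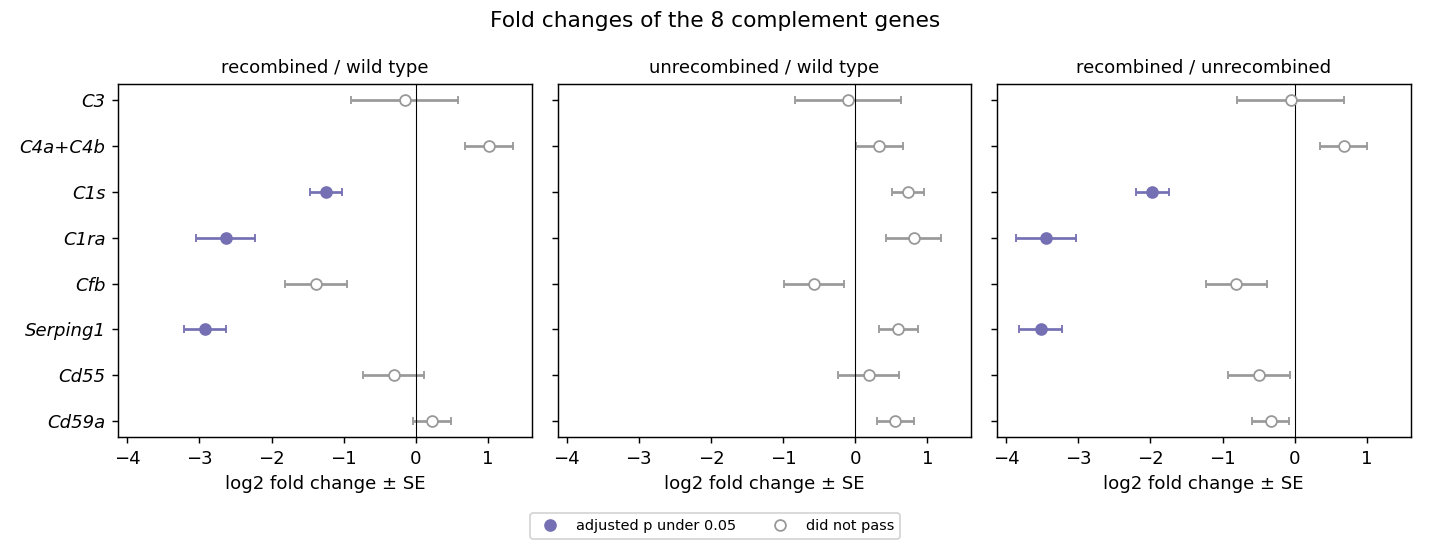
Log2 fold changes (horizontal axis, with SE) of the 8 genes in 3 comparisons: recombined over wild type, unrecombined over wild type, and recombined over unrecombined. Filled points passed an adjusted p of 0.05 in edgeR: C1s, C1ra and Serping1 in the outer panels, from -1.25 to -3.52, and none in the middle panel.

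The log2 values of C1ra and Serping1 lay further from 0 than that of C1s in both comparisons with recombined cells, and the ratios of the genes within each library describe this. Within a library there were 8.40, 4.35, 2.12 and 3.00 C1ra reads per 100 C1s reads in recombined libraries, 13.5, 13.0, 8.89 and 14.6 in unrecombined libraries, and 13.3, 9.64, 13.3 and 10.5 in wild type libraries. For Serping1 there were 33.9, 20.9, 25.9 and 23.9 reads per 100 C1s reads in recombined, 78.4, 79.4, 64.3 and 84.9 in unrecombined, and 72.1, 74.1, 101 and 78.8 in wild type libraries. Both ratios were lower in all 4 recombined libraries than in any other library. The mean log2 ratio of C1ra to C1s differed by -1.56 in recombined against wild type libraries, and that of Serping1 to C1s by -1.65. Against unrecombined libraries these differences were -1.65 and -1.57. Unrecombined and wild type ratios differed by 0.087 and -0.081. The ratios were chosen after the values were seen, so they are a description and carry no test. C1ra and Serping1 had the closest profiles of any 2 members, with a root mean square distance of 0.38 between their log2 CPM, each centred on its mean over the 12 libraries.

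**Figure D3:**
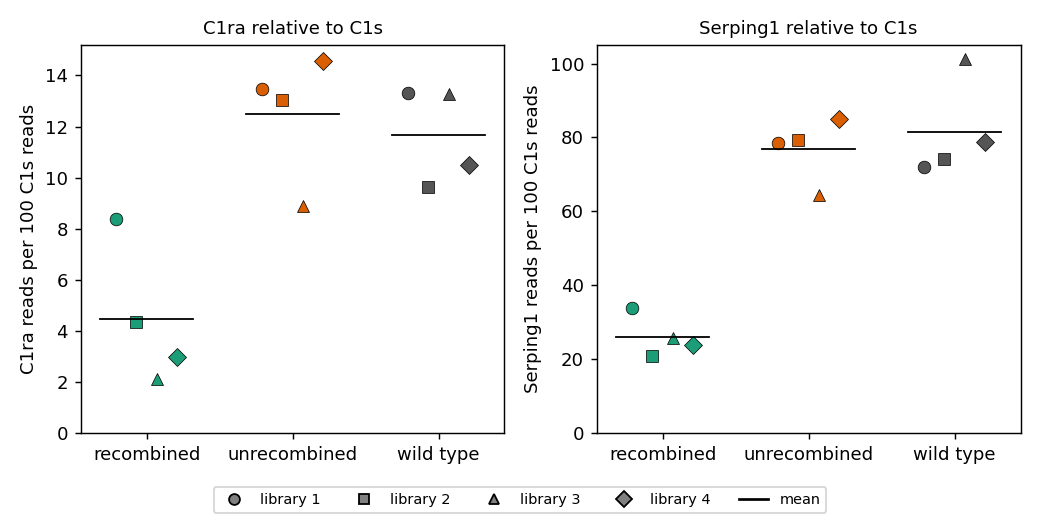
Reads of C1ra (left) and Serping1 (right) per 100 C1s reads in each library, with recombined, unrecombined and wild type groups from left to right and the mean of 4 as a line; both axes start at 0. All recombined points, up to 8.40 and 33.9, lie below all points of the other groups.

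C1s, C1ra and Serping1 moved with the fibroblast markers. All 8 fibroblast markers passed as lower in recombined cells in both comparisons, with log2 fold changes of -5.63 to -1.18 against wild type (median -4.08) and -6.98 to -2.37 against unrecombined cells (median -5.62). In unrecombined against wild type cells they differed by 1.19 to 1.60, and none passed. The 6 basal markers passed as higher in recombined cells in both comparisons, with medians of 2.76 and 3.11. Of 8 tested macrophage and dendritic markers 4 passed as lower against wild type (Ptprc, Cd74, H2-Aa and H2-Ab1), none against unrecombined cells. Cd68, Csf1r, Lyz2 (in an entry with Lyz1) and Itgam did not pass against wild type, with log2 fold changes of 0.71, -0.60, -0.87 and -0.28. The 4 endothelial markers had the same direction as the fibroblast markers, with smaller medians. These were -1.03 against wild type, -1.16 against unrecombined cells and 0.24 in unrecombined against wild type cells. Only Kdr passed, as lower against unrecombined cells (-2.43, adjusted p = 0.0303 in edgeR). Of the 9 luminal markers, Esr1 and Prlr passed as lower in recombined cells in both comparisons and none passed as higher. The luminal sum of every recombined library was below that of every other library, but Prlr weighs heavily in it. Prlr alone had 477 to 1327 CPM in recombined, 2120 to 3395 in unrecombined and 2211 to 4634 in wild type libraries. Krt8, Krt18, Krt19, Elf5, Kit and Epcam had recombined ranges that overlapped those of both other groups. C1s, C1ra and Serping1 had log2 fold changes nearer 0 than the fibroblast median in both comparisons. Within the recombined group, library 1 had the lowest fibroblast sum, at 205 CPM, the lowest C1s level, and the highest C1ra and Serping1 levels. Most of that sum was Dcn and Col1a2, with 145 and 24.9 CPM in library 1 and 418 and 105 CPM in library 4. Dcn, Col1a2 and Mfap5 were lowest in library 1, while Col1a1, Col3a1, Pdgfra, Lum and Pdgfrb were not. The recombined C1s levels lay close together, from 33.7 to 38.0 CPM. The part of the fibroblast, endothelial, basal and luminal transcripts in the fall of C1s, C1ra and Serping1 was not tested.

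**Figure D4:**
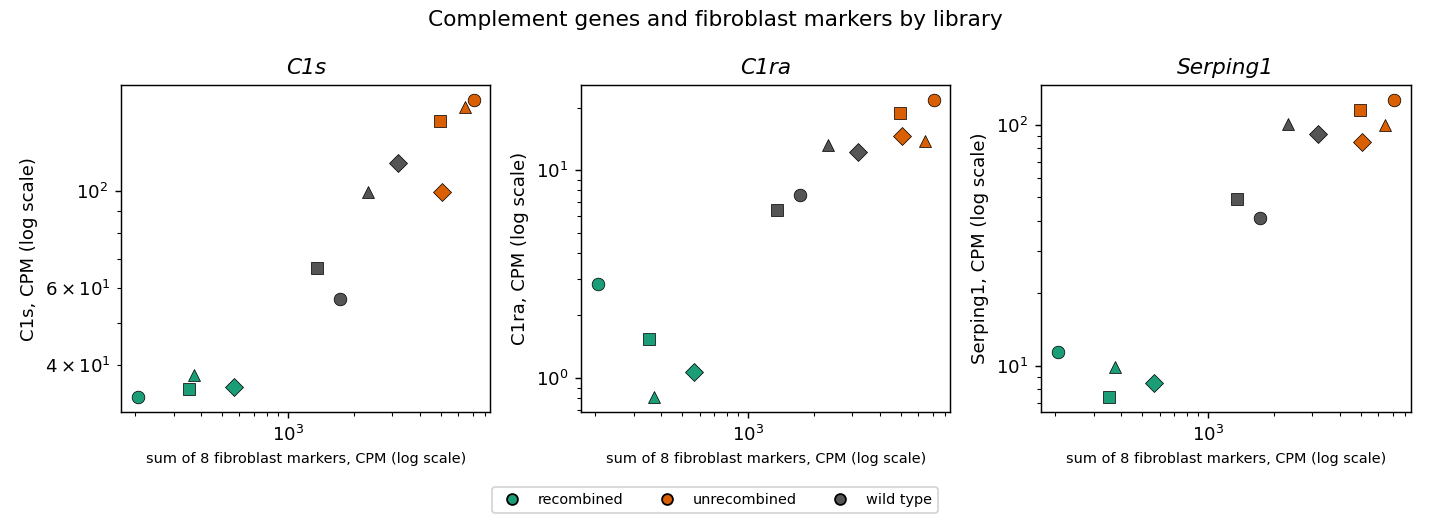
Levels of C1s, C1ra and Serping1 (vertical axes, CPM, log scale) against the summed level of 8 fibroblast markers (horizontal axis, CPM, log scale) in 12 libraries; colors give recombined, unrecombined and wild type groups and shapes the library number. The recombined libraries lie at the lower left, between 205 and 564 CPM of fibroblast markers, and the unrecombined libraries at the upper right.

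By likeness of centred log2 CPM over the 12 libraries, the tested loci nearest to C1s were Nid1, a basement membrane protein (distance 0.32), Fbln5, an elastic fiber protein (0.38), and Dlg2 (0.39), where the spread of C1s itself was 0.85. Nearest to C1ra were Serping1 (0.38), the lysyl oxidase family member Loxl2 (0.45) and Hc (0.45), and nearest to Serping1 were C1ra (0.38), Fgl2 (0.45) and the transcription factor Zeb1 (0.51), with spreads of 1.58 for C1ra and 1.56 for Serping1. Hc is itself a complement gene, and encodes C5.

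C4, the joined entry of C4a and C4b (chromosome 17, from 34865325), ran the other way, without passing in edgeR. It had 45.0, 48.3, 71.1 and 38.8 CPM in recombined, 21.5, 46.1, 39.3 and 20.1 CPM in unrecombined, and 13.4, 25.9, 35.9 and 25.6 CPM in wild type libraries. Every recombined library was above every wild type library, and the unrecombined range overlapped both. The log2 fold change was 1.01 ± 0.333 in recombined against wild type cells (adjusted p = 0.0914), which did not pass in edgeR, and passed with DESeq2 (adjusted p = 0.0315). Against unrecombined cells it was 0.68 ± 0.331 (adjusted p = 0.302). How the counting assigned reads between the near-identical C4a and C4b is not given in the sources used here.

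C3 (chromosome 17, from 57343395) had 1256, 108, 212 and 178 CPM in recombined, 875, 314, 208 and 426 CPM in unrecombined, and 671, 354, 670 and 261 CPM in wild type libraries. Recombined library 1 was the highest of all 12 and recombined library 2 the lowest, so the groups overlapped throughout. The means were 438 ± 547, 456 ± 293 and 489 ± 213 CPM (SD, n = 4) in recombined, unrecombined and wild type libraries. The log2 fold changes were -0.16 ± 0.738 (adjusted p = 0.938) in recombined against wild type and -0.06 ± 0.738 (adjusted p = 0.979) against unrecombined cells. Recombined library 1 decided these values: without it they were -1.56 ± 0.489 (adjusted p = 0.0721) and -1.46 ± 0.487 (adjusted p = 0.098). That library also had the highest luminal sum of its group (9 markers, 4645 CPM, against 2274 to 4105 in the other 3) and the lowest basal sum (1242 CPM, against 3090 to 5099). Whether these bear on its C3 level was not tested. Unrecombined library 1, which shares its replicate number, was also the highest of its group, at 875 CPM. In an edgeR fit with the replicate number as a block, C3 differed by -0.78 ± 0.481 against wild type (adjusted p = 0.381). The pairing of wild type libraries by number is unclear in that fit.

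Cfb (chromosome 17, from 34993318), the protease subunit of the alternative pathway convertase, had 14.6, 6.85, 16.2 and 3.83 CPM in recombined, 14.9, 25.4, 15.4 and 17.2 CPM in unrecombined, and 26.0, 43.0, 24.3 and 15.0 CPM in wild type libraries. Recombined library 3 reached into both other ranges, and the other 3 recombined libraries lay below all libraries of both. The log2 fold change was -1.38 ± 0.428 against wild type (adjusted p = 0.0724), not past the threshold in edgeR and past it with DESeq2 (adjusted p = 0.0145), and -0.81 ± 0.424 against unrecombined cells (adjusted p = 0.338).

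The membrane regulators had overlapping ranges in recombined cells and both other groups. Cd55 (chromosome 1, from 132335606) had 271, 100, 241 and 63.3 CPM in recombined, 227, 153, 404 and 168 CPM in unrecombined, and 156, 219, 287 and 174 CPM in wild type libraries. Its log2 differences were -0.31 ± 0.425 in recombined against wild type (adjusted p = 0.748), -0.49 ± 0.425 against unrecombined (0.603) and 0.19 ± 0.424 in unrecombined against wild type cells. Cd59a (chromosome 2, from 103935957) had 18.5, 12.8, 13.9 and 12.5 CPM in recombined, 15.4, 17.9, 22.5 and 16.8 CPM in unrecombined, and 14.6, 12.4, 14.8 and 7.63 CPM in wild type libraries. Its log2 differences were 0.22 ± 0.259 in recombined against wild type (adjusted p = 0.691), -0.33 ± 0.259 against unrecombined (0.551) and 0.56 ± 0.259 in unrecombined against wild type cells (unadjusted p = 0.0506). These standard errors leave room for changes of either sign in Cd55, and a value that did not pass does not show that the groups are alike.

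Per kilobase of exon, C3 and Cd55 had the highest mean levels of the members in every group. In recombined cells the order of mean levels was C3 (85.3 CPM per kb), Cd55 (66.7), C1s (11.96), C4 (9.44), Cd59a (7.96), Serping1 (4.62), Cfb (3.78) and C1ra (0.524). Ranges of neighbours overlapped except between Cd55 and C1s, between Cd59a and Serping1 and between Cfb and C1ra. The place of C3 rests on library 1: without it C3 averaged 32.3 ± 10.3 and Cd55 53.2 ± 37.0 CPM per kb (SD, n = 3). In unrecombined cells the order was Cd55 (93.9 CPM per kb), C3 (88.8), Serping1 (53.0), C1s (47.0), Cd59a (10.03), Cfb (6.62), C4 (5.90) and C1ra (5.79), with a gap only between C1s and Cd59a. In wild type cells it was C3 (95.2 CPM per kb), Cd55 (82.5), Serping1 (35.1), C1s (28.4), Cfb (9.84), Cd59a (6.83), C4 (4.68) and C1ra (3.30), with gaps between Cd55 and Serping1 and between C1s and Cfb. Serping1 thus stood at position 3 in unrecombined and in wild type cells and at position 6 in recombined cells. Lengths are exon unions of the GENCODE M21 basic set, and C4 is divided by the length of C4b alone although reads of C4a may be in its count.

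Beyond the 8 genes, 39 further entries of a list of complement genes were in the table, and 23 of them had enough counts to be tested. In recombined against wild type cells 2 of these 23 fell and 1 rose, where 2.38% of all loci passed as lower and 4.17% as higher. In recombined against unrecombined cells 2 fell and none rose, where 2.14% of all loci passed as lower and 3.08% as higher. Their medians were -0.34 and -0.27 on the log2 scale, against -0.019 and -0.0088 over all loci. In unrecombined against wild type cells none of the 23 passed in edgeR (median 0.047), while DESeq2 called Masp1 (adjusted p = 0.0166) and Hc (0.0232). The genes that fell are the terminal component Hc (C5) and the membrane collectin Colec12.

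Hc had 5.37, 4.39, 1.29 and 3.46 CPM in recombined, 110, 73.1, 52.5 and 45.1 CPM in unrecombined, and 20.1, 21.9, 30.2 and 30.0 CPM in wild type libraries, so that the 3 groups did not touch. It differed by -2.80 ± 0.390 against wild type (adjusted p = 0.000875) and by -4.26 ± 0.414 against unrecombined cells (adjusted p = 3.56e-05). Colec12 had 1.52, 1.87, 0.323 and 0.700 CPM in recombined, 31.0, 27.6, 17.8 and 16.8 CPM in unrecombined, and 7.35, 11.2, 12.6 and 8.81 CPM in wild type libraries, again without overlap. It differed by -3.15 ± 0.457 (adjusted p = 0.00118) and -4.37 ± 0.479 (adjusted p = 9.15e-05). Both genes lay lower with the fibroblast markers of the same libraries given above, whose part was not tested.

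Masp1, a protease of the lectin pathway that is related to C1r and C1s, rose. It had 14.1, 19.99, 31.8 and 30.2 CPM in recombined, 15.2, 21.5, 24.2 and 25.4 CPM in unrecombined, and 2.52, 8.08, 10.4 and 7.41 CPM in wild type libraries. Both groups of the Cre genotype lay above all wild type libraries and overlapped each other. The log2 fold change was 1.76 ± 0.390 in recombined against wild type cells (adjusted p = 0.0155), and it was lost without recombined 3 and 4 together (1.26, adjusted p = 0.192) and in library numbers from 23 alone (1.29, adjusted p = 0.430). In unrecombined against wild type cells the difference was 1.60 ± 0.388 (adjusted p = 0.437), and between recombined and unrecombined cells 0.15 ± 0.377 (adjusted p = 0.888).

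**Figure D5:**
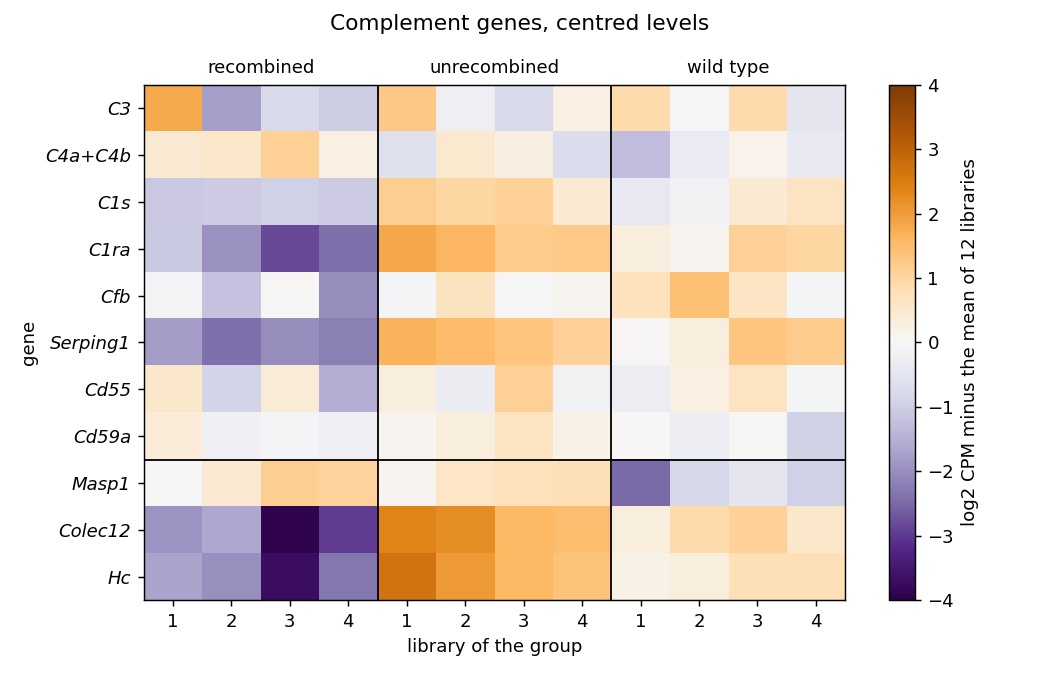
Log2 CPM of the 8 complement genes (above the line) and 3 further complement genes that passed in a comparison (below it), each minus its mean over 12 libraries, in recombined, unrecombined and wild type libraries 1 to 4 from left to right. C1s, C1ra, Serping1, Colec12 and Hc are low in all 4 recombined libraries, Masp1 is low in wild type libraries, and C3 and Cd55 vary within groups.

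By role, 0 of 3 further classical entries, 0 of 5 membrane regulators and 0 of 5 receptors passed in edgeR in any comparison. With 6.55%, 5.22% and 0% of all loci passing in the 3 comparisons, counts of 0 in groups this small say little about a role. C2, the other substrate of C1s, had 2.37 ± 1.35 CPM in recombined, 9.25 ± 2.76 in unrecombined and 8.79 ± 5.54 in wild type libraries (SD, n = 4), with log2 differences of -1.88 ± 0.559 (adjusted p = 0.0607) in recombined against wild type and -1.96 ± 0.560 (adjusted p = 0.0611) against unrecombined cells, and its recombined libraries lay below all others. The chains of C1q, which macrophages make, were near 0 in all libraries, with highest values of 0.301, 0.933 and 0.537 CPM for C1qa, C1qb and C1qc. Clu, clusterin, a soluble regulator of the terminal pathway, had 131 ± 60.9, 156 ± 38.8 and 185 ± 41.5 CPM in recombined, unrecombined and wild type libraries. Cr1l (Crry), the mouse membrane regulator of C3, had 90.9 ± 14.2, 115 ± 21.2 and 112 ± 19.2 CPM. Neither passed, with log2 differences of -0.50 ± 0.2999 and -0.30 ± 0.178 in recombined against wild type cells (adjusted p = 0.385 and 0.384). Among receptors, Cd93 had 19.6 ± 11.6, 35.8 ± 11.1 and 33.4 ± 10.2 CPM, and the C3a receptor C3ar1 had 1.65 ± 1.97, 0.938 ± 0.192 and 3.89 ± 0.744 CPM in recombined, unrecombined and wild type libraries. The entries of Masp2 and Cfp are shared with the abundant genes Tardbp and Araf and say nothing of Masp2 or Cfp alone. In all, 17 of the 39 entries stayed under 1 CPM in every library, among them Cfd, C6, C8b, C9 and Cfi.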

How the data were processed

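STAR, HTSeq 0.3.1 and build mm9 are named by the authors, per the submitters' processing notes; options, strand setting and annotation are not given in the sources used here. The values of the deposited file are whole-number read counts without normalization, with totals of 19581993 to 34779433 per library. Of 36635 entries 20114 name a single locus and were analysed; the others held 0.0617% to 0.101% of counts. Among the 20114, 3266 entries join several symbols, as that of C4a and C4b does. Joined and antisense genes cannot be told apart.

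Counts were fitted with edgeR 4.0.16 in R 4.3.3 (TMM, default filter, robust quasi-likelihood F test, all 12 libraries, a mean per group, two-sided, Benjamini-Hochberg over 14039 loci, threshold 0.05). The fit was also run on simulated data, drawn without the pairing between libraries described below, so that run cannot vouch for the test here. The log2 CPM used a prior count of 2. Alternatives included DESeq2 1.42.0 and limma-voom (limma 3.58.1). Members and lists were chosen with earlier results of these data known. Named were the 8 members, further complement genes past the threshold, others of highest level in their role, and the 3 nearest loci of each called member. The counts of further complement genes leave out 1 gene, which is not reported here.

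Replicate numbers pair recombined with unrecombined libraries: deviations from group means correlated with r of 0.239, 0.399, 0.244 and 0.298, against -0.24 to -0.0345 for different numbers. Because deviations sum to 0 within a group, positive values for equal numbers push those for different numbers below 0. The negative range is therefore not a separate reference. Number 1 did not pair wild type libraries (r of -0.0314 with recombined and 0.00248 with unrecombined). For numbers 2 to 4, r with wild type was 0.185, 0.109 and 0.125 for recombined libraries, against -0.147 to 0.169 for different numbers. For unrecombined libraries it was 0.312, 0.157 and 0.159, against -0.247 to 0.337. No correction for cell type was made.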

Additional observations from a re-analysis of the deposited data

Results flagged for a closer look

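The C3 level of 1256 CPM in recombined library 1 stood apart from the other 3 recombined libraries, which had 108 to 212 CPM. Its gap to the nearest of them was 0.909 of the range of the group, above Dixon's critical value for a group of 4. It was the only one found in 33 groups of 4 libraries (11 genes in 3 groups). Chance flags about 1 group in 20, so 1 flag in 33 groups is not more than chance would give.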

How the results depend on the processing

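The calls of C1s, C1ra and Serping1 held without each single library in both comparisons with recombined cells (3 to 3 members called), while all loci called ranged from 502 to 1217 against wild type and from 449 to 1044 against unrecombined cells (920 and 733 with all libraries; 612, 600 and 502 without wild type 2, 3 or 4, and 449 without unrecombined 1), and stayed at 0 to 0 in unrecombined against wild type cells. Against wild type the members called were 5 with DESeq2 (with C4 and Cfb), 1 in library numbers from 23 (Serping1) and 2 without recombined 3 and 4. Loci called were then 1617, 75 and 248, and 594 with only the groups compared. The replicate block over all libraries in edgeR gave 5 members, with C4 at 1.05 (adjusted p = 0.0183) and Cfb at -1.40 (adjusted p = 0.0492). For wild type libraries the pairing by number is unclear, and number 1 did not pair them. Against unrecombined cells, where the numbers pair libraries, the block changed no member's call and gave 984 loci. There, DESeq2 called 1349 loci against 733 in edgeR, numbers from 23 gave 106, numbers from 24 gave 115 with 1 member, and 283 were called without recombined 3 and 4. In unrecombined against wild type cells DESeq2 called 78, limma-voom 18, only the 2 groups 8 and the block over all libraries 1.

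Directions that turned belong to values that did not pass. C3 was 0.26 against wild type and 0.19 against unrecombined cells in numbers from 23, and 0.46 and 0.57 without recombined 3 and 4. In unrecombined against wild type cells it was 0.23 with the number series as covariate, 0.073 in numbers from 23 and 0.29 in those from 24. There Cd55 was -0.22 in numbers from 23 and Cfb 0.13 in those from 24. Masp1 was -0.091 in numbers from 23 and -0.34 without recombined 3 and 4 between recombined and unrecombined cells. Leaving out single libraries moved C3 between -1.56 and 0.17 against wild type, between -1.46 and 0.47 against unrecombined cells and between -0.63 and 0.14 in unrecombined against wild type cells, and Cd55 there between -0.19 and 0.38. The causes were not tested.

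Entries that name a member with a near copy held 8.46% to 15.6% of the count of C1s (with Gm5077), 10.2% to 42.3% of C1ra (with C1rb), 2.08% to 3.93% of Cd55 and 0.935% to 5.43% of Cd59a. Adding them, an alternative chosen after seeing the data, changed no call of these genes. Depth limits C1ra in recombined libraries, with 15 to 95 reads.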
